A study of Mus musculus with 12 samples.

Results

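Ppm1n and the genes that lie with it beside Fosb on mouse chromosome 7 are described here, in striatal RNA of hemiparkinsonian mice treated with L-DOPA. The genes are Ppm1n, Vasp, Rtn2, Ercc1, Ppp1r13l and Opa3. They were taken from the transcript table by gene symbol and make up 6 of its 52169 gene symbols and 40 of its 189660 transcripts. Ppm1n was selected on its reads, because acute L-DOPA raised them on the lesioned side, so its levels are given as a description with no test. The other 5 were chosen by position around Fosb, but not by distance alone, and with earlier results of these data known. Cd3eap (46.0 kb from Fosb), 1700058P15Rik (43.0 kb) and D830036C21Rik (30.9 kb) lie nearer than Opa3 (46.2 kb) and Ppp1r13l (49.7 kb) and were left out. The question was whether the 5 moved with Ppm1n. The mice were female C57BL/6J. All of them, controls included, had received 3 µg of the toxin 6-OHDA in the right medial forebrain bundle, with desipramine (25 mg/kg) to protect noradrenergic neurons, and 2 weeks of recovery. The left striatum of such a mouse keeps its dopamine fibres and is called unlesioned here. L-DOPA (10 mg/kg) with benserazide (7.5 mg/kg) was injected once (acute) or daily for 9 days (chronic), and tissue was taken 1 h after the last injection. This gave 4 groups of 3 libraries each: acute unlesioned, acute lesioned, chronic unlesioned and chronic lesioned. No group was injected with vehicle, so a difference between the sides holds the lesion and the drug together.

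Fosb is an immediate early gene. Its protein pairs with Jun proteins to form the transcription factor AP-1, and it is induced in spiny neurons of the striatum when dopamine receptors are stimulated after dopamine loss. Ppm1n belongs by sequence to the PP2C family, phosphatases that need magnesium or manganese and remove phosphate from serine and threonine. Vasp helps actin filaments to grow at the cell edge. Rtn2 is a reticulon, a membrane protein that bends the tubules of the endoplasmic reticulum. Ercc1 forms with Ercc4 the nuclease that cuts damaged strands in nucleotide excision repair. Ppp1r13l encodes iASPP, an inhibitor of p53. Opa3 is a mitochondrial protein whose mutations cause inherited optic atrophy.

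In mm9, the build of the table and of the genome used here, Fosb spans chr7:19888045-19895394 on the minus strand. Ppm1n, of 5 exons, spans chr7:19862155-19865398 on the same strand, and its 5′ end lies 22.6 kb past the 3′ end of Fosb. Vasp (chr7:19842278-19857203) follows on that strand, 4.95 kb past the 3′ end of Ppm1n. Rtn2 (chr7:19867984-19881513) lies between Ppm1n and Fosb on the plus strand, and its 5′ end is 2.59 kb from that of Ppm1n. Opa3 (chr7:19813683-19841892), Ercc1 (chr7:19930127-19941873) and Ppp1r13l (chr7:19945098-19963882) are on the plus strand as well. A further transcript on the strand of Fosb, the cDNA clone AK132834 (chr7:19883609-19886119), starts 1.93 kb past the end of Fosb. No other transcript of the table overlaps Ppm1n on either strand. Vasp overlaps the transcript 1700058P15Rik on the opposite strand over 1248 bases, and Ercc1 overlaps Cd3eap on the opposite strand over 518 bases. How the counting treated strand is not given in the sources used here, so reads of such partners cannot be told apart.

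The bases just before the start of transcription are shown for Fosb, for Ppm1n and for Opa3, the neighbour whose response to the lesion changed with repeated L-DOPA. Each line holds the 250 bases before the 5′ end of the transcript with most reads, 5′ to 3′ on the strand of the gene, from the mm9 genome. Capitals mark matches, on either strand, to TGACGTCA (the cAMP response element), to its part TGACG, to TGACTCA (the AP-1 site) or to GGGCGG (the GC box).
Fosb, chr7:19895395-19895644, minus strand: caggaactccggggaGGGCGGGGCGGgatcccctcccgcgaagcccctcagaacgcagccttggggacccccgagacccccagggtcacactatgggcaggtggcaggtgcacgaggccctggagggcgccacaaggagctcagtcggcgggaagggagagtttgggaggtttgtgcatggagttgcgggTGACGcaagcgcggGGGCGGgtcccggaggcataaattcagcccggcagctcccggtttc
Ppm1n, chr7:19865399-19865648, minus strand: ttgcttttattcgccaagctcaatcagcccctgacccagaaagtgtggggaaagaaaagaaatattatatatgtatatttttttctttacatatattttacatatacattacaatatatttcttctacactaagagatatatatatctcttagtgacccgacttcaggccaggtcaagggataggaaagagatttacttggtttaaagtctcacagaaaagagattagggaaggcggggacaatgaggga
Opa3, chr7:19813433-19813682, plus strand: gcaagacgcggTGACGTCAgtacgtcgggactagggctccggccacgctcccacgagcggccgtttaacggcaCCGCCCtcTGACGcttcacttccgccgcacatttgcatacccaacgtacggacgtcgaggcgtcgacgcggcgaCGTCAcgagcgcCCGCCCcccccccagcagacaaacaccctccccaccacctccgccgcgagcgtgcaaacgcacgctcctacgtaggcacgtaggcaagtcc

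The search covered 300 bases per gene, those shown and the first 50 of the transcript, and was run for 16584 genes. The window of Opa3 holds TGACGTCA, with its first base 239 bases before the start, and 2.29% of all windows hold it. TGACG is found in the windows of Opa3 and Fosb, in Fosb 60 bases before the start, and in 23.6% of all windows. GGGCGG is found in Fosb, Rtn2, Ppp1r13l and Opa3 and in 45.3% of all windows, and TGACTCA in Ercc1 and in 4.47%. No window of the 6 genes or of Fosb holds TATAAA (12.8% of all) or the CArG box (1.46%). The window of the clone AK132834 holds TGACG 78 bases before the start, and TATAAA 41 bases before it on the opposite strand. The windows of Ppm1n and Vasp hold none of these motifs. The window of Ppm1n is also poor in G and C, at 40.7% against a median of 56.0% over all windows, whereas those of Fosb and Opa3 are at 68.3% each. A match is a run of letters and not a shown binding site, and no match says only that these letters are not in the window.

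Totals ran from 87695043 to 173116525 counts per library over all transcripts, where transcripts of a gene share reads, so that totals exceed the number of reads. Levels are in CPM, counts scaled to a common TMM-adjusted library total, for the transcript of each gene with most reads. The 8 markers of striatal spiny neurons, the main cell type of the tissue, were all above 3 counts in every group, with a summed level of 1495 to 2067 CPM. Markers of astrocytes and microglia were higher on the lesioned side after acute L-DOPA, where edgeR called 2 of 5 higher in each list and 0 lower. The summed level of 5 astrocyte markers was 191 to 236 CPM in acute lesioned against 155 to 171 in acute unlesioned libraries, and 166 to 217 against 131 to 147 after chronic L-DOPA. For 5 microglia markers it was 56.3 to 66.3 against 50.5 to 52.0 CPM after acute L-DOPA, and 37.0 to 45.1 against 35.3 to 44.7 after chronic L-DOPA. The 5 endothelial markers overlapped between the sides in both treatments, at 14.6 to 27.7 CPM over all libraries. Of 5 oligodendrocyte markers edgeR called 1 and DESeq2 2 higher after acute L-DOPA, with a summed level of 1807 to 2930 against 1783 to 1959 CPM. Of 5 markers of cortical glutamatergic neurons edgeR called 1 higher and 1 lower, with 4 lower at an unadjusted p under 0.05, and of the 8 spiny neuron markers it called 4 higher and 3 lower. In the chronic lesion comparison edgeR called 1 astrocyte marker higher and, of the spiny neuron markers, 2 higher and 1 lower. With the replicate block it called 2 astrocyte, 1 microglia and 1 endothelial marker higher and 2 oligodendrocyte and 3 cortical markers lower. Of the spiny neuron markers the block gave 2 higher and 2 lower. Between the treatments in the lesioned striatum, edgeR called lower after chronic L-DOPA 5 of 5 oligodendrocyte, 4 of 5 microglia, 3 of 5 astrocyte and 1 of 5 endothelial markers and 3 of 4 blood markers, and of the 8 spiny neuron markers 2 lower and 1 higher. In the unlesioned striatum it called lower 2 microglia, 2 astrocyte and 1 spiny neuron marker and 1 cortical marker higher, and DESeq2 called 3 spiny neuron markers lower. In the change of the lesion effect between the treatments edgeR called 1 spiny neuron marker higher, and with the replicate block 4 oligodendrocyte markers and 1 blood marker lower and 1 astrocyte and 2 spiny neuron markers higher. Of all genes edgeR called 15.3% in the acute and 13.7% in the chronic lesion comparison. It called 25.6% between the treatments in the lesioned striatum, 3.07% in the unlesioned striatum and 5.1% in the change of the lesion effect. With the replicate block it called 21.6% of all transcripts in the chronic lesion comparison and 12.1% in that change. The acute libraries did not pass the check for pairing, which the block assumes for that change. None of the markers was at 0 in a group, and their part in the results was not tested. In tissue punches, fewer cells of a type and less RNA per cell cannot be told apart.

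Reads of Ppm1n were present in the acute lesioned striatum and nearly absent elsewhere. The acute lesioned libraries held 33, 32 and 61 counts. The acute unlesioned libraries held 1, 0 and 1 count, the chronic unlesioned libraries 1, 0 and 0, and the chronic lesioned libraries 1 each. No library outside the acute lesioned group reached the floor of 3 counts, and none overlapped with it. In CPM the acute lesioned libraries were at 0.250, 0.370 and 0.568, with a mean of 0.396 ± 0.161 (SD, n = 3). Set against the highest level that 3 counts stand for in a library of the other group, this mean was at least 17.6-fold higher than in acute unlesioned and at least 11.6-fold higher than in chronic lesioned striatum. Without the third acute lesioned library, which was the highest, these bounds were 13.8-fold and 9.08-fold. Floors cover counting error only, because the reads carry no molecular identifiers. Even at its highest Ppm1n was scarce: per kb of transcript it stood at 0.243 CPM in the acute lesioned striatum, near Ppp1r13l at 0.283, while Vasp stood at 1.37, Ercc1 at 2.14, Opa3 at 3.66, Rtn2 at 9.63 and Fosb at 60.3 CPM per kb.

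**Figure D1:**
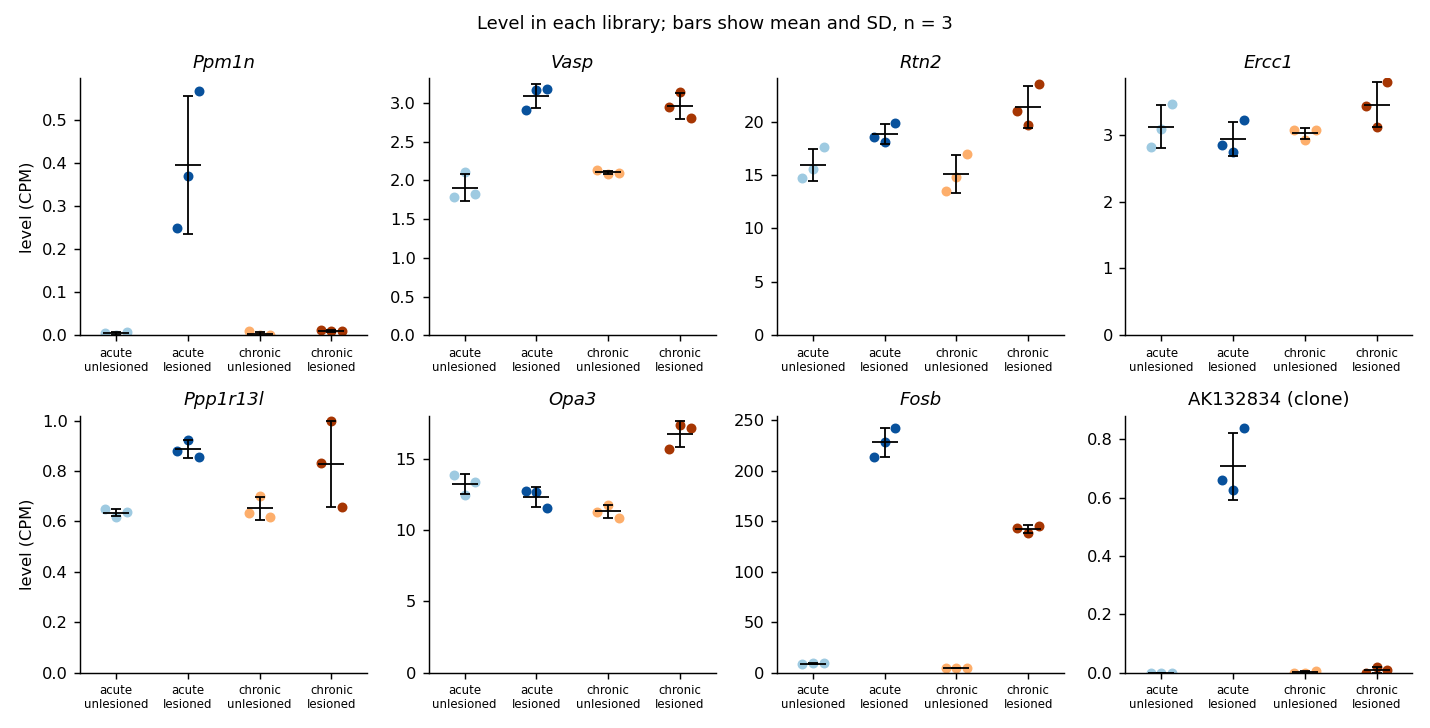
Level in CPM (vertical axis, from 0, a scale of its own in each panel) of the 6 genes, of Fosb and of the clone AK132834 in the 12 libraries, by group; points are libraries, and bars show the mean and SD of 3. Ppm1n and the clone stand above 3 counts in the acute lesioned libraries alone, while Fosb is high in both lesioned groups and the 5 neighbours have levels of the same order in all 4.

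Fosb itself was high in the lesioned striatum after either treatment. Its level was 213, 228 and 242 CPM in acute lesioned libraries against 8.37, 9.31 and 9.23 in acute unlesioned ones. After chronic L-DOPA it was 144, 138 and 145 CPM in lesioned against 5.02, 4.24 and 4.60 in unlesioned libraries. The sides did not overlap in either treatment. On the log2 scale the lesion effect was 4.67 ± 0.08 (SE, edgeR quasi-likelihood test, adjusted p = 3.78e-11) after acute and 4.94 ± 0.10 (edgeR, adjusted p = 6.07e-09) after chronic L-DOPA. Chronic lesioned libraries were lower than acute lesioned ones by a difference of -0.68 ± 0.08 (edgeR, adjusted p = 0.000191), which is a ratio of 0.624. In the unlesioned striatum the difference was -0.96 ± 0.08 (edgeR, adjusted p = 0.00170).

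Set against Fosb, the counts of Ppm1n are again a description, since the acute lesioned counts are those for which Ppm1n was chosen. In the acute lesioned libraries there were 1.17, 1.62 and 2.35 Ppm1n counts per 1000 Fosb counts, or 126 per 73815 in all. The 3 chronic lesioned libraries held 3 counts beside 43413 of Fosb, where the pooled acute ratio corresponds to 74.1. The acute unlesioned libraries held 2 where that ratio corresponds to 6.82, and the chronic unlesioned libraries held 1 where it corresponds to 2.97. The chronic lesioned libraries thus combined high Fosb with single counts of Ppm1n, while in the unlesioned libraries both were low.

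**Figure D2:**
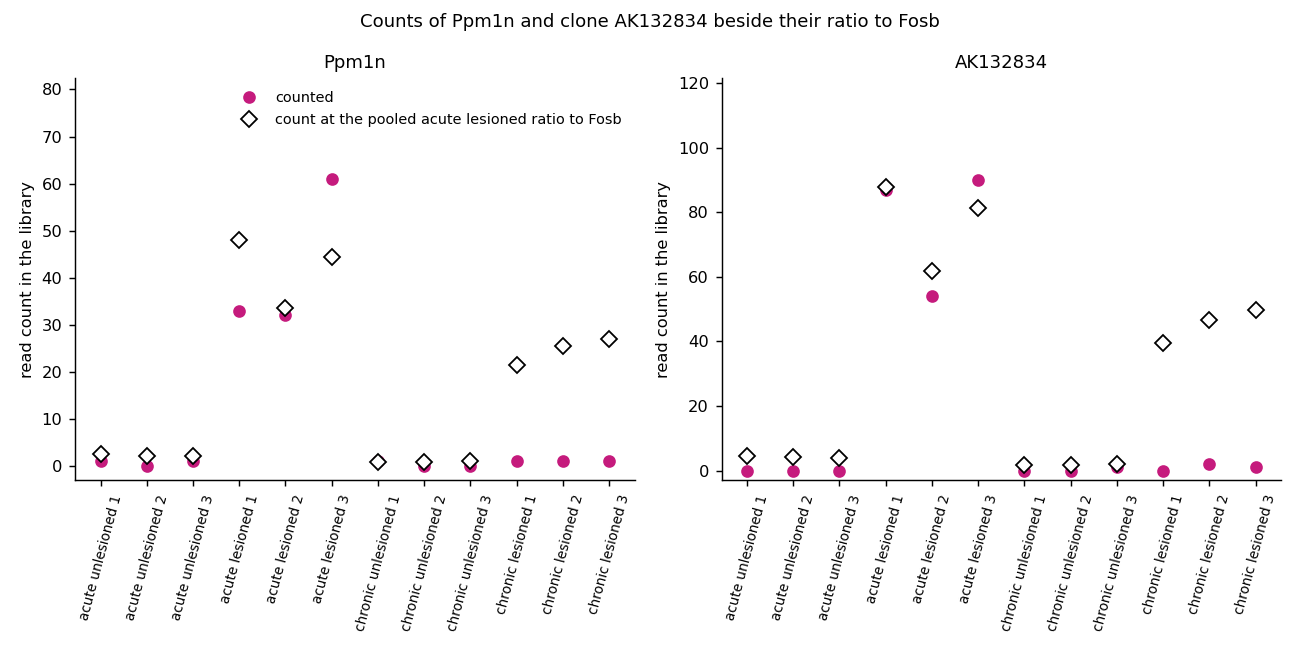
Read counts of Ppm1n (left) and of the clone AK132834 (right) in each of the 12 libraries (filled points), with the count that the pooled ratio to Fosb in the acute lesioned libraries would give there (open diamonds). In the 3 chronic lesioned libraries the filled points of both transcripts lie below the diamonds, and Ppm1n has 1 count each.

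The clone AK132834, which lies between Fosb and Ppm1n on their strand, had its reads in the same 3 libraries and is likewise given with no test. It held 87, 54 and 90 counts in acute lesioned libraries and none in the 3 acute unlesioned ones. The chronic lesioned libraries held 0, 2 and 1, and the chronic unlesioned libraries 0, 0 and 1. Its acute lesioned mean of 0.708 ± 0.115 CPM (SD, n = 3) was at least 31.5-fold higher than in acute unlesioned and at least 20.7-fold higher than in chronic lesioned striatum. Per 1000 Fosb counts there were 3.10, 2.74 and 3.46 in acute lesioned libraries. The chronic lesioned libraries held 3 counts, where the pooled acute ratio corresponds to 136. Along the strand, the level in acute lesioned striatum fell from 60.3 CPM per kb at Fosb to 0.330 at the clone, was 0.243 at Ppm1n and was 1.37 at Vasp, which was transcribed in every group.

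**Figure D3:**
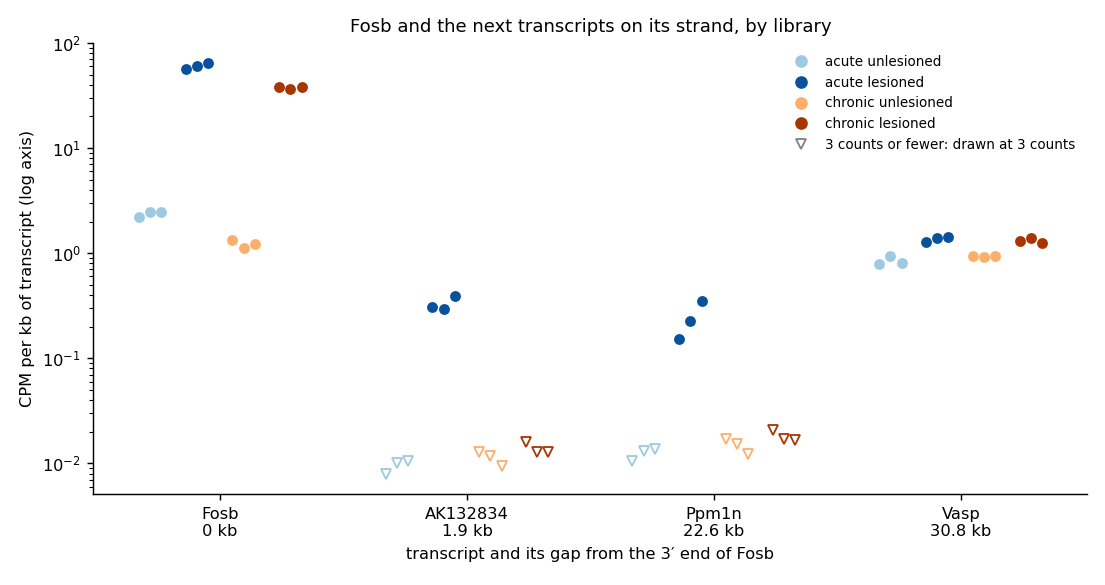
Level in CPM per kb of transcript (log axis) of Fosb and of the next transcripts on its strand, ordered by their gap from the 3′ end of Fosb, in the 12 libraries by group; open triangles mark libraries with 3 counts or fewer, drawn at 3 counts. AK132834 and Ppm1n rise above the floor in the 3 acute lesioned libraries alone, and Vasp stands above it in all 12.

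Of the 5 neighbours, Vasp, Rtn2 and Ppp1r13l rose with the lesion after acute L-DOPA, by 0.24 to 0.70 on the log2 scale, and none was called lower. That depends on the genes left out. Cd3eap was called lower (-0.32 ± 0.07, edgeR, adjusted p = 0.0150) and 1700058P15Rik higher (1.53 ± 0.40, edgeR, adjusted p = 0.0281). D830036C21Rik was not called (0.94 ± 0.36, edgeR, adjusted p = 0.113). Over all genes, taking a single transcript per gene symbol, 15.3% were called in this comparison at an edgeR adjusted p under 0.05, and 8.16% were called higher. The count of 3 rests on small margins. It was 1 or 2 whenever a library was left out, and 1 with a fit over all 12 libraries. After chronic L-DOPA Vasp, Rtn2 and Opa3 rose and none was called lower, where 13.7% of genes were called and 8.45% were called higher. Between chronic and acute L-DOPA, Opa3 alone was called in the lesioned striatum (25.6% of genes called). None was called in the unlesioned striatum (3.07% of genes called), where edgeR gave 1 gene at an unadjusted p under 0.05 and DESeq2 called 0. Opa3 was also the 1 neighbour whose lesion effect differed between the treatments by the interaction test (5.1% of genes called). Counted over transcripts, which share reads, 14 of the 37 tested transcripts of the 5 genes had an acute lesion effect called higher and 17 of 36 a chronic one, with 0 called lower in either. Of all transcripts, 6.85% and 7.71% were called higher in these comparisons. In the interaction test 6 of 37 were called, all of Opa3, beside 3.22% of all transcripts called higher.

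**Figure D4:**
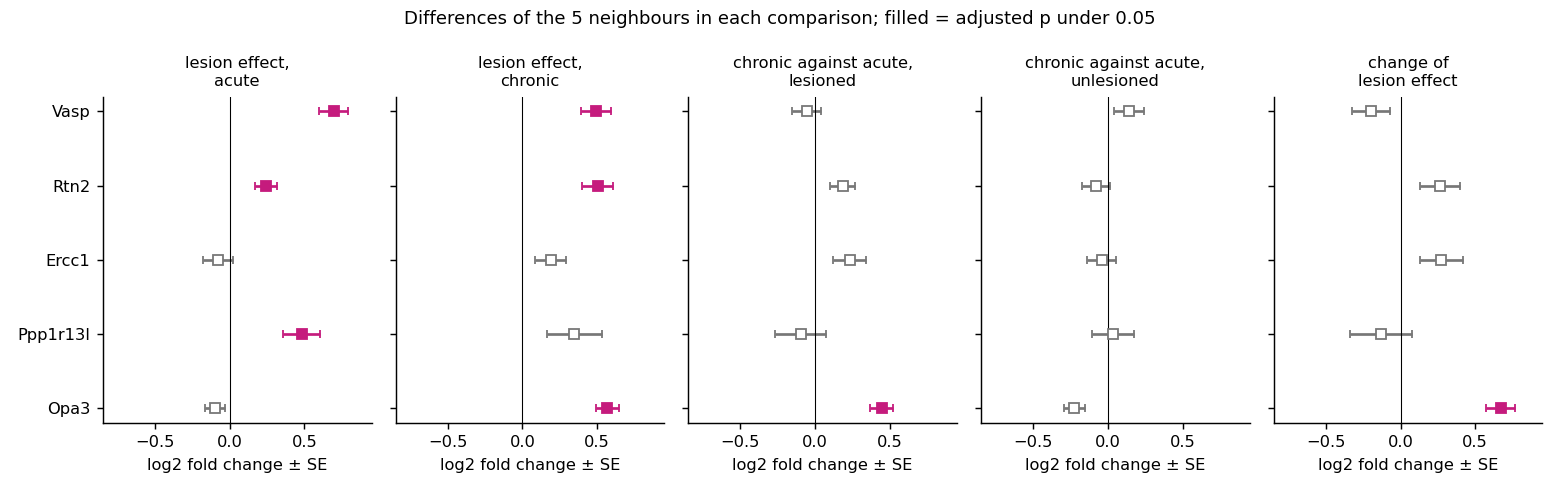
Log2 differences of the 5 neighbours (horizontal axis, bars show the SE) in the 5 comparisons, one panel each; filled squares have an edgeR adjusted p under 0.05. Vasp is to the right of 0 in both lesion comparisons, Ercc1 is called in none, and Opa3 is called after chronic L-DOPA, between the treatments in the lesioned striatum and in the change of the lesion effect.

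Vasp, the next gene on the strand of Ppm1n, was higher in the lesioned striatum after both treatments. Its level was 2.90, 3.17 and 3.18 CPM in acute lesioned against 1.79, 2.10 and 1.83 CPM in acute unlesioned libraries. After chronic L-DOPA it was 2.95, 3.14 and 2.80 CPM in lesioned against 2.13, 2.09 and 2.10 CPM in unlesioned libraries. All 6 lesioned libraries lay above all 6 unlesioned ones. The lesion effect was 0.70 ± 0.10 after acute (SE, edgeR, adjusted p = 0.000691), which is 1.62-fold, and 0.49 ± 0.10 after chronic L-DOPA (edgeR, adjusted p = 0.00920), which is 1.41-fold. Neither the difference between the treatments in the lesioned striatum (-0.06 ± 0.10, edgeR, adjusted p = 0.716) nor the change of the lesion effect (-0.20 ± 0.13, edgeR, adjusted p = 0.427) was called. Of its 8 transcripts 7 were called higher after acute and 6 after chronic L-DOPA. The overlapping transcript 1700058P15Rik, at 3 to 7 counts in acute unlesioned and 7 to 14 in acute lesioned libraries, was also called after acute L-DOPA (1.53 ± 0.40, edgeR, adjusted p = 0.0281), and was not called with any of the 6 libraries left out (adjusted p from 0.0531 to 0.103). Summed astrocyte markers were higher on the lesioned side without overlap in both treatments, and microglia markers after acute L-DOPA. Their part in the rise of Vasp, and that of the oligodendrocyte markers, was not tested.

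Rtn2 starts beside Ppm1n on the other strand and was the most abundant of the 6 genes per length. Its level was 18.5, 18.1 and 19.9 CPM in acute lesioned against 14.7, 15.5 and 17.6 CPM in acute unlesioned libraries, and the groups did not overlap. The lesion effect after acute L-DOPA was 0.24 ± 0.07 (SE, edgeR, adjusted p = 0.0473), and it was not called without any of 5 of the 6 libraries, with adjusted p from 0.0611 to 0.175. After chronic L-DOPA Rtn2 was at 21.0, 19.6 and 23.5 CPM in lesioned and at 13.5, 14.8 and 17.0 CPM in unlesioned libraries. This lesion effect was 0.50 ± 0.10, or 1.42-fold (edgeR, adjusted p = 0.0102), and all 5 transcripts of the gene were called. The change of the lesion effect was 0.26 ± 0.13 and was not called (edgeR, adjusted p = 0.310).

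Ppp1r13l, the inhibitor of p53, was the least abundant of the 5 neighbours per length. It was at 0.879, 0.925 and 0.857 CPM in acute lesioned and at 0.649, 0.619 and 0.637 CPM in acute unlesioned libraries, with no overlap. The lesion effect was 0.48 ± 0.13 (SE, edgeR, adjusted p = 0.0267), or 1.40-fold, on 80 to 116 counts per library. It was not called by DESeq2 (adjusted p = 0.118), over all 12 libraries (edgeR, adjusted p = 0.0582) or without any of 5 of the 6 libraries. After chronic L-DOPA the lesioned libraries spread from 0.656 to 0.999 CPM and overlapped with the unlesioned ones at 0.618 to 0.701, and the lesion effect of 0.35 ± 0.18 was not called (edgeR, adjusted p = 0.269).

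Ercc1, the repair nuclease subunit on the far side of Fosb, was called in none of the 5 comparisons. Its level was 2.85, 2.74 and 3.22 CPM in acute lesioned and 2.82, 3.08 and 3.46 CPM in acute unlesioned libraries, which overlap. After chronic L-DOPA it was 3.44, 3.12 and 3.79 CPM in lesioned and 3.08, 2.93 and 3.07 CPM in unlesioned libraries, which do not. The lesion effects were -0.08 ± 0.10 after acute (SE, edgeR, adjusted p = 0.655) and 0.19 ± 0.10 after chronic L-DOPA (edgeR, adjusted p = 0.280). None of its 10 transcripts was called in either comparison. Cd3eap, which overlaps Ercc1 on the other strand and encodes a subunit of RNA polymerase I, fell after acute L-DOPA (-0.32 ± 0.07, edgeR, adjusted p = 0.0150), a call lost without the third acute unlesioned library (adjusted p = 0.0649) or the second acute lesioned library (adjusted p = 0.0577).

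Opa3, the mitochondrial gene on the far side of Vasp, had no call in the acute lesion comparison and was called higher in the chronic one. Its level was 12.7, 12.7 and 11.5 CPM in acute lesioned and 13.8, 12.4 and 13.4 CPM in acute unlesioned libraries, and the groups overlapped. After chronic L-DOPA it was 15.7, 17.4 and 17.2 CPM in lesioned and 11.3, 11.8 and 10.9 CPM in unlesioned libraries, and the groups did not overlap. The lesion effect was -0.10 ± 0.07 after acute (SE, edgeR, adjusted p = 0.363) and 0.57 ± 0.08 after chronic L-DOPA (edgeR, adjusted p = 0.000964), or 1.48-fold. The difference between these effects was 0.67 ± 0.10 (edgeR interaction, adjusted p = 0.000989), and 6 of its 7 transcripts were called in that test. In the lesioned striatum Opa3 rose from acute to chronic L-DOPA by 0.45 ± 0.08 (edgeR, adjusted p = 0.00273), while the glial and blood markers called in that comparison were lower. In the unlesioned striatum the difference was -0.22 ± 0.07 (edgeR, adjusted p = 0.101), and it was called without the second chronic unlesioned library (-0.26, edgeR, adjusted p = 0.0393). Across the treatments the lesioned libraries of Opa3 and those of Ppm1n stood in opposite order, Opa3 higher after chronic and Ppm1n higher after acute L-DOPA. For Ppm1n this order is a description only, since its acute lesioned reads are those for which it was chosen.

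Around these genes, all transcripts within 250 kb of Fosb were counted, which are 185 transcripts of 36 gene symbols. Leaving out the 6 genes, Fosb and the clone, 22 genes could be tested after acute L-DOPA, and 5 were called higher and 1 lower, or 27.3%, where 15.3% of all genes were called. The share depends on the window, at 42.9% of 7 genes within 100 kb and 17.8% of 45 within 500 kb. The 5 were Gpr4, 1700058P15Rik, Six5 (0.71 ± 0.20, edgeR, adjusted p = 0.0350), Trappc6a (0.52 ± 0.12, edgeR, adjusted p = 0.0164) and Dmpk. Dmpk, the kinase gene whose repeat expansion causes myotonic dystrophy, rose by 0.40 ± 0.08 (SE, edgeR, adjusted p = 0.00677), which was not called over all 12 libraries (edgeR, adjusted p = 0.0514). With a library left out, Six5 and Trappc6a were each not called in 4 of 6 cases, with adjusted p up to 0.116 and 0.0625, whereas Gpr4 and Dmpk were called in all 6. Gpr4, a receptor that senses protons and the next gene beyond Opa3, was at 1.28, 1.70 and 1.29 CPM in acute lesioned and at 0.541, 0.619 and 0.547 CPM in acute unlesioned libraries. At 78.5 kb from Fosb it rose by 1.31 ± 0.14 (edgeR, adjusted p = 0.000112), beside 0.70 for Vasp at 30.8 kb and 0.24 for Rtn2 at 6.53 kb. Gpr4 fell again in the lesioned striatum from acute to chronic L-DOPA, by a difference of -0.86 ± 0.15 (edgeR, adjusted p = 0.00276). Ercc2, the next gene beyond Ppp1r13l, was not called (0.05 ± 0.11, edgeR, adjusted p = 0.787). After chronic L-DOPA 0 of 20 other window genes were called by edgeR, with 5 at an unadjusted p under 0.05, and DESeq2 called 1. With the replicate number as a block, which the chronic libraries allow, edgeR called Gipr (0.79 ± 0.18), C130070B15Rik, D830036C21Rik and Mark4 (0.24 ± 0.07) higher and Lrrc68 (-0.22 ± 0.06) lower, with adjusted p from 0.00970 to 0.0418. The block gave 21.6% of all transcripts called, against 12% without it. The median over the tested genes of the window without the members was 0.04 after acute and -0.03 after chronic L-DOPA, beside 0.02 and -0.01 over all genes.

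**Figure D5:**
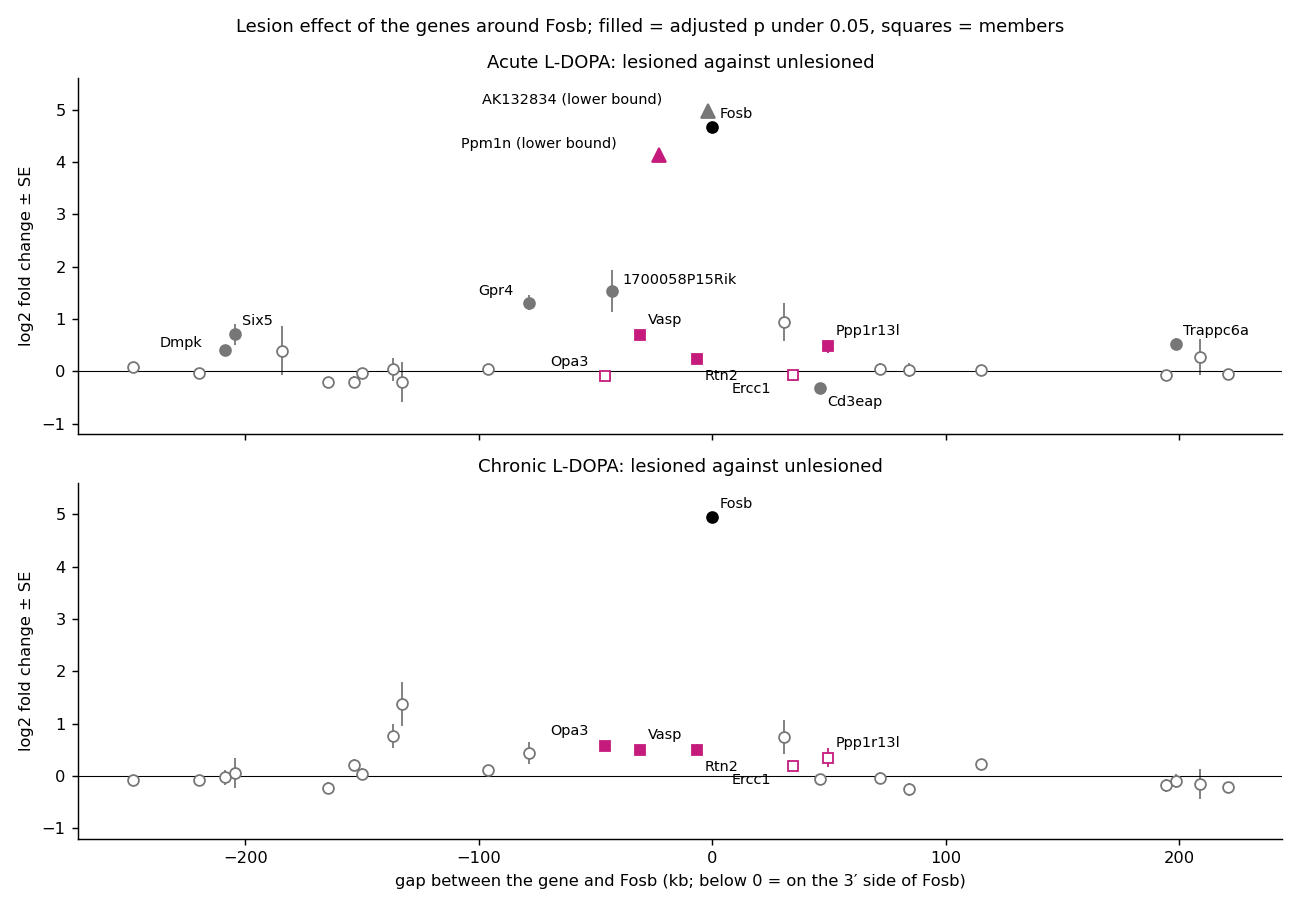
Log2 lesion effect (vertical axis, bars show the SE) of the tested genes within 250 kb of Fosb against their gap from Fosb (kb), after acute (top) and chronic L-DOPA (bottom); squares are the members, filled symbols have an edgeR adjusted p under 0.05, and triangles are lower bounds. Fosb stands alone among the genes drawn after chronic L-DOPA, where Ppm1n and AK132834 had too few counts to test and are not drawn. After acute L-DOPA the height of their triangles is set by depth and is no measured size. Rtn2 and Ercc1, on either side of Fosb, lie close to 0 in that panel.

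In the lesioned striatum, 9 of 21 other window genes differed between chronic and acute L-DOPA, 5 higher and 4 lower, where 25.6% of all genes were called. The glial and blood markers that were lower in this comparison are given above, and their part was not tested. Eml2, whose product binds microtubules, rose by 0.71 ± 0.08 (SE, edgeR, adjusted p = 0.000234) and Gipr, the receptor of an incretin hormone, by 1.10 ± 0.16 (edgeR, adjusted p = 0.00112). Qpctl (0.56 ± 0.10), Mark4 (0.44 ± 0.09) and Cd3eap (0.38 ± 0.09) were also higher. Gpr4, Six5 (-0.86 ± 0.25), Dmpk (-0.55 ± 0.13) and Lrrc68 (-0.46 ± 0.07) were lower. The call of Six5 was lost in 5 of 6 cases with a library left out (adjusted p up to 0.112) and that of Cd3eap in 3 of 6 (up to 0.0625). In the unlesioned striatum edgeR called 2 of 21, Eml2 higher (0.63 ± 0.08, adjusted p = 0.00895) and Lrrc68 lower (-0.29 ± 0.06, adjusted p = 0.0409). With a library left out these calls were lost in 2 of 6 cases for Eml2 (adjusted p up to 0.0677) and in 5 of 6 for Lrrc68 (up to 0.175). The glial and spiny neuron markers lower in the same comparison are given above, and their part was not tested.

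In the acute lesion comparison, edgeR and DESeq2 each called 0 of 18 other PP2C phosphatase genes higher. At an unadjusted edgeR p under 0.05, 3 were higher and 3 lower. Of all genes, 8.16% were called higher and 15.3% either way. Phlpp2, a phosphatase of the kinase Akt, was called lower (-0.26 ± 0.07 on the log2 scale, edgeR, adjusted p = 0.0274), and the list median was -0.05 beside 0.02 over all genes. After chronic L-DOPA 3 were called higher and 1 lower, where 8.45% of all genes were called higher and 13.7% either way, and DESeq2 called 2 and 1. With the replicate block, which called 21.6% of all transcripts, it was 4 and 2. Pdp1, which activates pyruvate dehydrogenase, went from 36.1 ± 2.66 to 75.6 ± 5.50 CPM (SD, n = 3, difference 1.07 ± 0.09). Ppm1d, the phosphatase Wip1 that dampens p53 signaling, went from 5.06 ± 0.434 to 9.12 ± 0.192 CPM (SD, n = 3, difference 0.85 ± 0.09). Ppm1j was called higher at 0.215 ± 0.0814 CPM in the lesioned striatum (SD, n = 3). Ppm1k, the phosphatase of branched-chain amino acid breakdown, fell by a difference of -0.49 ± 0.10. For Pdp1 (0.90 ± 0.12, edgeR, adjusted p = 0.000399) and Ppm1d (0.93 ± 0.11, edgeR, adjusted p = 0.000117) the lesion effect changed between the treatments, where 5.1% of all genes were called.

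Among 10 Ena/VASP proteins and actin partners, the acute comparison called 4 higher and the chronic comparison 2, Vasp among both, where 8.16% and 8.45% of all genes were called higher. edgeR and DESeq2 called 0 lower in either, with 1 lower at an unadjusted edgeR p under 0.05 in the acute one. After acute L-DOPA the others were the adhesion protein Zyx (0.32 ± 0.07), Pfn1 (0.26 ± 0.07), which feeds actin monomers to filaments, and Enah (0.24 ± 0.06). After chronic L-DOPA Pfn1 was called with Vasp (0.44 ± 0.10), and with the replicate block Abi1 as well (0.23 ± 0.06, edgeR, adjusted p = 0.0165, against 0.160 without). The list medians were 0.21 and 0.12.

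In 9 tested genes of the ASPP and p53 list, edgeR called 4 higher in the acute comparison, where DESeq2 called 2, and both called 2 higher in the chronic comparison. Of all genes 8.16% and 8.45% were called higher by edgeR, and the list medians were 0.48 and 0.09. In neither was a gene lower, by either tool or at an unadjusted edgeR p under 0.05, which gives 0. Cdkn1a, the p53 target that arrests the cell cycle, rose by 1.69 ± 0.14 after acute and by 2.16 ± 0.20 after chronic L-DOPA. Bbc3, a p53 target of the apoptosis pathway, rose by 1.52 ± 0.15 and 0.98 ± 0.16. Trp63 (1.07 ± 0.28), a relative of p53, and Ppp1r13l were called after acute and not after chronic L-DOPA. Without a block the change of the lesion effect was called for neither. The replicate block takes the acute libraries as paired, which their check did not bear out, and it called 12.1% of all transcripts for that change. It called Trp63 (-1.57 ± 0.48, edgeR, adjusted p = 0.0472) and Bbc3 (-0.51 ± 0.15, edgeR, adjusted p = 0.0465, against 0.229 without).

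Of 12 reticulons and other shapers of the endoplasmic reticulum, edgeR called Rtn2 alone after acute L-DOPA, where DESeq2 called 1 higher and 1 lower. The counts of this paragraph stand beside 8.16% of all genes called higher and 15.3% either way after acute L-DOPA, and 8.45% and 13.7% after chronic L-DOPA. After chronic L-DOPA edgeR called Rtn2, Reep1 (0.34 ± 0.07) and Atl2 (0.33 ± 0.08) higher, and DESeq2 called 4 higher. With the replicate block edgeR called 4 higher and Rtn4, Atl3 and Arl6ip1 lower, beside 21.6% of all transcripts. Of 13 genes of nucleotide excision repair, Ercc4, the partner of Ercc1, fell after acute (-0.43 ± 0.07) and chronic L-DOPA (-0.68 ± 0.12), and Slx4 fell after acute L-DOPA (-0.35 ± 0.07). In either lesion comparison edgeR and DESeq2 each called 0 of them higher, and 0 were higher at an unadjusted edgeR p under 0.05. Of 10 genes of mitochondrial shape and optic atrophy, edgeR and DESeq2 each called 0 after acute L-DOPA (1 lower at an unadjusted edgeR p under 0.05), and Opa3 and Wfs1 (0.55 ± 0.15) were called higher after chronic L-DOPA.

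To find the genes with a profile most like that of Ppm1n, the CPM of each gene was divided by its sum over the 12 libraries, and the distance from Ppm1n was the share of the profile that would have to move to make them equal (0 for equal profiles, 1 for profiles with no library in common). Of 19531 genes compared, the nearest was AK132834 at a distance of 0.108. Then came Spib, a transcription factor of the lymphoid lineage, at 0.111, LOC100504377 at 0.113, the clone AK082320 at 0.118 and C630044B11Rik at 0.129. The acute lesioned libraries held 90.4% to 98.4% of the summed level of these 5, and 95.8% of that of Ppm1n. Fosb ranked as number 50 at 0.367, with 59.4% of its level in the acute lesioned libraries. The 5 are scarce transcripts at 0.280 to 0.708 CPM in the acute lesioned striatum, so their distances carry counting error.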

How the data were processed

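The RNA-seq libraries were prepared with a TruSeq kit, and reads were mapped to mm9 with the Genomatix software. The authors deposited raw read counts per transcript, without normalization, for 12 libraries. They also deposited a normalized expression signal, used here only to check the counts, and 3 tables of their own DESeq comparisons (p-values and fold changes), which were not used, nor were 36 columns of values per sample in them. Handling of multi-mapped reads is not given in the sources used here. Rows that name no gene held 0.0485% of counts and were left out.

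Counts were fitted in edgeR 4.0.16 (R 4.3.3, limma 3.58.1) with filterByExpr, TMM normalization, glmQLFit and glmQLFTest. Each comparison of 2 groups used its 6 libraries, and the change of the lesion effect was an interaction over all 12. P-values were adjusted by Benjamini-Hochberg over all transcripts tested, and an adjusted p under 0.05 was called. Values are those of the transcript with the highest mean count per gene. With 3 libraries a group, an exact permutation test cannot go below p = 0.1, so none was run. The labels count 12 mice, while the methods take each mouse as its own control. Same-numbered libraries were checked for pairing: deviations from group means correlated at 0.345, 0.431 and 0.148 after chronic L-DOPA, which pairs those libraries, and at 0.306, 0.225 and 0.0951 after acute L-DOPA, which does not reach the limit of 0.1 in every pair. A replicate block is thus borne out for the chronic lesion comparison alone. In the acute comparison and the change of the lesion effect it takes the acute libraries as paired as well. Between the treatments it joins libraries of different mice that share only a number. Its calls there are an alternative fit and no paired result. On simulated counts the acute fit recovered 182 of 200 changed transcripts with 15 false calls among 197, over 128529 transcripts, and the interaction fit recovered 152 of 200 with 7 false calls among 159, over 129765.

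Replicates of a group differed by more than sampling noise, with a chi-square per degree of freedom of 5.41 to 19.7. The genes, the gene lists and the rule for named genes were chosen with earlier results of these data known. Named were the members, Fosb, the genes called within 250 kb, the genes next to the members, the 5 profiles nearest to Ppm1n with a mean of at least 0.1 CPM in the acute lesioned libraries, and, beside the members, up to 3 called genes per list and lesion comparison. Ppm1k and the genes called with the replicate block alone fall outside this rule and were named after their values were seen. The alternatives tried were DESeq2 1.42.0 and its size factors, no filter, a single transcript per gene, the sum over transcripts, a replicate block, all 12 libraries, an adjusted p under 0.01, windows of 100 and 500 kb, and each library left out in turn. Tables and figures were made with Python (pandas, matplotlib).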

Additional observations from a re-analysis of the deposited data

Results flagged for a closer look

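The lesion effect on Opa3 differed between the treatments by the interaction test. It was -0.10 ± 0.07 (SE, log2 scale) after acute and 0.57 ± 0.08 after chronic L-DOPA, a change of 0.67 ± 0.10 (edgeR, adjusted p = 0.000989). All 3 chronic lesioned libraries, at 15.7 to 17.4 CPM, lay above the other 9, at 10.9 to 13.8 CPM. Over 18 alternatives the change stayed between 0.62 and 0.72 with adjusted p up to 0.00414. Of 22 other genes tested within 250 kb of Fosb, edgeR and DESeq2 each called 0 for such a change, with 6 at an unadjusted edgeR p under 0.05, where 5.1% of all genes were called. The acute libraries did not pass the check for pairing, so a replicate block is an alternative fit only in this test. With the replicate number as a block edgeR called C130070B15Rik and Qpctl higher and Gpr4 and Trappc6a lower, where 12.1% of all transcripts were called. The change of Gpr4 was -0.87 ± 0.26 (edgeR, adjusted p = 0.0739, and 0.0193 with the block). Of the cell type markers edgeR called 1 spiny neuron marker higher in the same test, and with the block 2, with 1 astrocyte marker higher and 4 of 5 oligodendrocyte markers and 1 blood marker lower. Their part was not tested.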

How the results depend on the processing

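The count of neighbours called after acute L-DOPA was 3, and it fell to 1 with a fit over all 12 libraries and to 1 at an adjusted p under 0.01, where Vasp remained. With a library left out it ranged from 1 to 2, against 3 in each case after chronic L-DOPA, 1 to 2 between the treatments in the lesioned striatum and 0 to 1 in the unlesioned striatum. The second chronic lesioned library and the second chronic unlesioned library gave the added calls, Rtn2 (0.24, edgeR, adjusted p = 0.0480) and Opa3. The mean level of Ppm1n was 1.88 CPM on a total of a single transcript per gene and 0.784 CPM as a sum over its transcripts, against 0.396 CPM, since the first changes the total and the second the reads summed, and it ranged from 0.310 to 0.469 CPM with an acute lesioned library left out. Among values that were not called, 4 changed sign when a library was left out. Between the treatments in the unlesioned striatum Ercc1 ranged from -0.11 to 0.037 and Ppp1r13l from -0.028 to 0.077. Ppp1r13l ranged from -0.26 to 0.053 between the treatments in the lesioned striatum and from -0.29 to 0.014 in the change of the lesion effect. The replicate block is borne out by the pairing check for the chronic lesion comparison alone, and its results elsewhere are an alternative fit. With it the change of the lesion effect of Fosb, 0.28, was called (edgeR, adjusted p = 0.0426, against 0.168 without). The call of Lrrc68 in the unlesioned striatum was lost (edgeR, adjusted p = 0.0518), though that block joins different mice by number. For the 5 neighbours 0 calls changed in any of the 5 comparisons. The block raised the share of all transcripts called from 12.9% to 21.8% after acute L-DOPA and from 4.52% to 12.1% in the change of the lesion effect. After acute L-DOPA it added 1 window gene, and it gave 3 PP2C phosphatases higher and 2 lower, and 4 of 5 markers each of oligodendrocytes, microglia and astrocytes higher. It also gave 1 endothelial and 2 blood markers higher, and of the cortical markers 1 higher and 4 lower. Without the 6 genes, Fosb and the clone, 13.5% and 20.1% of tested transcripts within 100 kb and 500 kb of Fosb were called after acute L-DOPA, against 23.6% within 250 kb and 12.9% of all transcripts. With Ppm1n at 1 count or none outside the acute lesioned group, its lower bounds are set by depth.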

Other observations

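The transcripts whose profile over the libraries came closest to that of Ppm1n mostly lay on or beside another gene, as AK132834 lies beside Fosb. The gene beside each was sought only among genes above a set mean count, so scarcer genes may lie between. Spib (chr7:51781365-51787441) lies 0.679 kb from Pold1, on the same strand. Spib held 27 to 36 counts in acute lesioned libraries and at most 2 in any other. Pold1, the catalytic subunit of a DNA polymerase, rose by 0.57 ± 0.10 (SE, log2 scale, edgeR, adjusted p = 0.00426) with the lesion after acute L-DOPA and was not called after chronic L-DOPA (-0.07 ± 0.13, edgeR, adjusted p = 0.766). LOC100504377 lies inside the span of Arih1, a ubiquitin ligase, and C630044B11Rik inside that of Ntrk2, the receptor of the neurotrophin BDNF. Arih1 rose by 0.36 ± 0.07 (edgeR, adjusted p = 0.00493) and Ntrk2 by 0.47 ± 0.07 (edgeR, adjusted p = 0.000716) after acute L-DOPA, and neither was called after chronic L-DOPA (0.35 ± 0.11 and 0.13 ± 0.09, edgeR, adjusted p = 0.0664 and 0.412). AK082320 overlaps Rab6b, which was called in neither (-0.07 ± 0.06 and 0.08 ± 0.08, edgeR, adjusted p = 0.481 and 0.585).

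The next genes in that order were looked at after their values were seen. AK143311 overlaps Fosl2, another gene of the Fos family, on the same strand. Gm16486 lies 7.54 kb from Jund and AK155907 lies 17.2 kb from Btg2, both on the same strand, and AK143361 lies 16.1 kb from Dusp5, on the opposite strand. AK078992 lies in Arih1, like LOC100504377. The lesion effects after acute L-DOPA were 2.34 ± 0.10 for Fosl2, 0.54 ± 0.11 for Jund, 3.64 ± 0.10 for Btg2 and 1.17 ± 0.11 for Dusp5. After chronic L-DOPA they were 3.22 ± 0.16, 1.25 ± 0.09, 3.94 ± 0.27 and 4.55 ± 0.13. These 4 genes were called higher in both treatments, where 8.16% of all genes were called higher after acute and 8.45% after chronic L-DOPA. By contrast, Pold1, Arih1, Ntrk2 and Rab6b were not called after chronic L-DOPA. The reads of the transcripts in the acute lesioned libraries are what placed them in this order. How often transcripts of any profile lie beside induced genes was not tested.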
